A study of Chenopodium quinoa with 24 samples.

Results

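The genes described here encode the alternative routes of plant respiration: alternative oxidases (AOX), type II NAD(P)H dehydrogenases (NDA, NDB and NDC) and mitochondrial uncoupling proteins (UCP). Members were the quinoa transcripts of the deposited table whose best Arabidopsis match was 1 of 10 loci, among them AOX1A (AT3G22370), AOX2 (AT5G64210), NDA1 (AT1G07180), NDA2 (AT2G29990), NDB2 (AT4G05020), NDB3 (AT4G21490), NDC1 (AT5G08740), UCP1 (AT3G54110) and UCP2 (AT5G58970), and 19 of 44776 transcripts were found. These 19 matched 9 of the loci. AOX1A had 4 quinoa copies, UCP1 had 3, AOX2, NDA2, NDB2, NDC1 and UCP2 had 2 each, NDA1 and NDB3 had 1 each, and AOX1D (AT1G32350) had none. All symbols below are those of the Arabidopsis match. A total of 17 members shared their Arabidopsis locus with another member, so copies of 1 gene are not separate genes, and how reads were divided between similar copies is not given in the sources used here.

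Leaf RNA came from 24 plants of the quinoa accession QQ74, with 3 plants in each of 8 groups, and each plant was a replicate. Roots and shoots of control plants were at 22°C, the heated roots of HR plants were at 30°C under cool shoots, the heated shoots of HS plants were at 35°C above cool roots, and HRS plants received both of these temperatures. Heating began when the main panicle first flowered, and leaves from the middle of the plant were taken in the morning of days 1 and 11, from different plants on the 2 days. One growth chamber held the control and HR plants and another held those with heated shoots, and each treatment had its own box, so that the chamber cannot be told apart from shoot heating, nor the box from the treatment.

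In the plant respiratory chain, electrons normally pass from complex I through ubiquinone, complex III and cytochrome c to complex IV, and protons are pumped on the way. Type II dehydrogenases feed electrons from NADH or NADPH into ubiquinone without pumping, and AOX passes them from ubiquinone straight to oxygen, so that little of the energy is kept as ATP. UCPs are carriers of the inner membrane that were named for letting protons back into the matrix, and in Arabidopsis UCP1 and UCP2 also carry amino acids and other metabolites.

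The table held no value of a single plant. For each transcript it gave the difference b between treatment and control of the same day, in natural logs of the normalized estimated counts, with the variance among the 6 plants of each of 6 comparisons. Errors below are limma standard errors, with 3 plants against 3, and a transcript was called at a Benjamini-Hochberg adjusted p under 0.05 over all transcripts of the comparison. Group levels are geometric means in normalized estimated counts, rebuilt from the fits. They can be compared between the groups of a day for 1 transcript, but not between transcripts, whose lengths differ, and not between days, which were scaled apart. The number of reads behind a level was not in the table, and 16 members were tested in all 6 comparisons and 3 in some of them. The 3 treatments of a day were set against the same control plants, so that their values are not independent of each other.

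The leaf identity of the samples was checked with markers. Of 21 transcripts of the leaf genes RBCS1A, RCA, LHCB1, LHCA1 and PSAD, 20 were tested, and all of these were at or above the percentile 97.2 of abundance. Of 9 transcripts of the flower organ genes AGAMOUS, APETALA3 and PISTILLATA, 6 were not tested and the others had mean ln levels from 1.58 to 2.41. Both copies of the heat-inducible chaperone HSP101 were called higher in HS and HRS on day 1 (b from 3.38 to 4.89) and neither in HR. On day 11 both were called higher in HS, with b of 1.47 (AUR62008514) and 2.26 (AUR62021576), and neither in HR. In HRS on day 11 the values were smaller, 0.23 and 1.24 in the same order, and only AUR62021576 was called. Scaling the groups to equal total estimated counts would shift every b of day 1 by -0.18 (HS) and -0.13 (HRS), every b of day 11 by 0.24 (HS) and -0.01 (HRS), and those of HR by -0.09 on both days. Calls of members that are gained or lost with this shift are named as such. Values that it only makes smaller or larger, or turns in sign without a call, are not all named.

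On day 1, shoot heating was accompanied by more mRNA of 1 AOX1A copy and of both copies of NDB2, an external dehydrogenase that faces the intermembrane space. In HS, 3 of 18 tested members were called, all higher, beside 22.1% of all 30579 transcripts, of which 12.1% were called higher. In HRS, 4 of 18 were called, all higher, beside 22.7% of 30341 transcripts (12.2% higher). The share of members called, 16.7% and 22.2%, was thus not above that of all transcripts in either treatment. With total scaling, the share of calls that were higher moved from 54.7% to 26.3% over all transcripts in HS and from 53.9% to 31.4% in HRS, and the 3 higher calls of AOX1A and NDB2 stayed in both treatments.

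**Figure D1:**
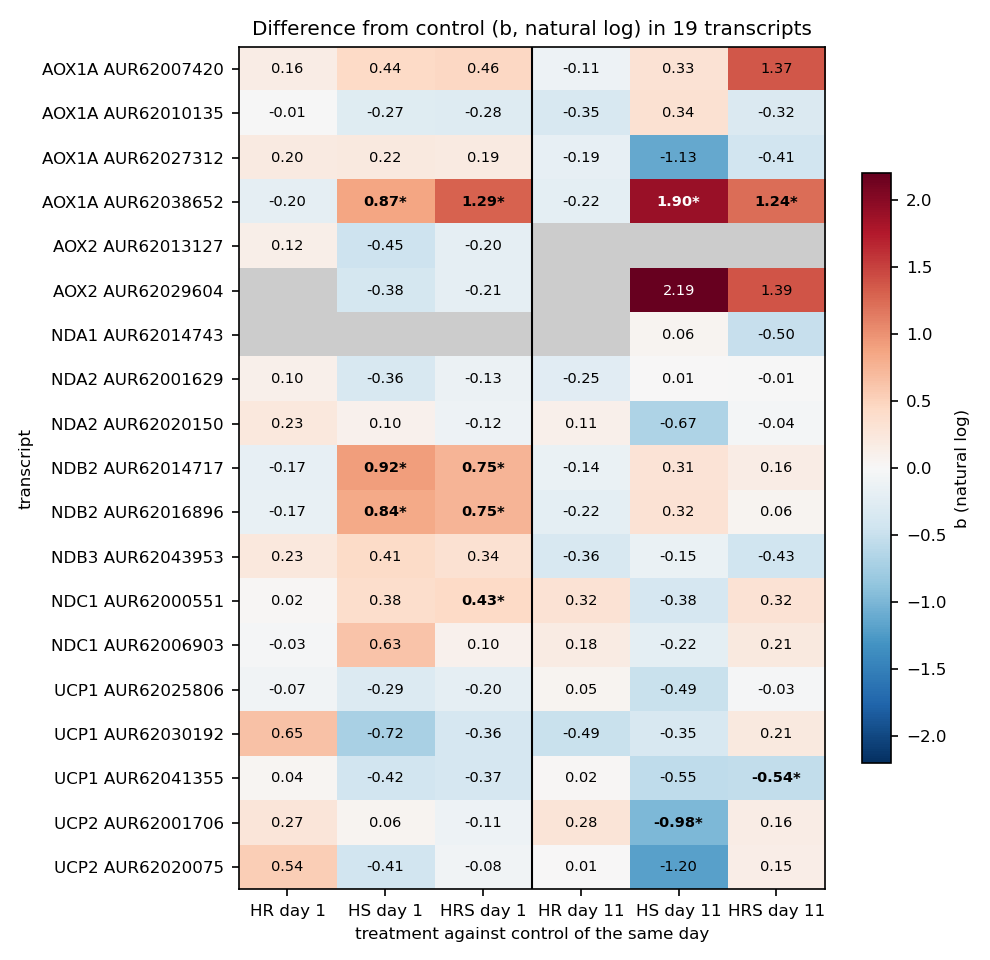
Difference from the control of the same day (b, natural log, colour and number) for the 19 transcripts (rows) in the 6 comparisons (columns). Bold values with a star are called by limma at an adjusted p under 0.05, and grey fields were not tested. The starred fields are in HS and HRS, with the AOX1A copy AUR62038652 starred in all 4 of these and NDB2 on day 1 alone.

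The AOX1A copy AUR62038652 stood out among the 6 alternative oxidase transcripts. AOX1A is the stress-responsive oxidase of Arabidopsis. On day 1 its level was 31.4 normalized estimated counts under control conditions, 25.7 under HR, 75.8 under HS and 116 under HRS. Both groups with heated shoots were above both groups without. The difference from control was 0.87 ± 0.20 in HS, a 2.39-fold higher level (95% interval 1.52 to 3.78, limma adjusted p = 0.0169), and 1.29 ± 0.18 in HRS, 3.64-fold higher (2.41 to 5.49, adjusted p = 0.0017).

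On day 11 the same copy was at 26.7 under control conditions, 21.3 under HR, 180 under HS and 92.9 under HRS. Heated shoots again had the higher levels. It was 6.65-fold higher in HS (b 1.90 ± 0.25, 95% interval 3.71 to 11.9, limma adjusted p = 0.0216) and 3.44-fold higher in HRS (b 1.24 ± 0.24, interval 1.98 to 5.97, adjusted p = 0.0307). In HS on day 11 it ranked 107 of all transcripts by p. The day 11 calls of this copy were not made when the variance was used without moderation or moderated without a trend over abundance, nor at an adjusted p under 0.01. On day 1 the HS call was lost with unmoderated variance (adjusted p = 0.058) and at that stricter threshold, and the HRS call was made under all 10 alternatives.

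Root heating was not shown to alter this AOX1A response. The HRS level was 1.52 times the HS level on day 1 (95% interval 0.80 to 2.88) and 0.52 times on day 11 (0.23 to 1.15), with limma adjusted p of 1.00 and 0.44. The intervals leave room for differences in either direction. The fold difference under HS was 2.78 times as large on day 11 as on day 1 (interval 1.36 to 5.69), which did not pass the adjustment (b change 1.02 ± 0.33, adjusted p = 0.062). It was called by the normal z test (adjusted p = 0.041) and with total scaling (b change 1.44, adjusted p = 0.0075). The fold difference under HRS changed by 0.94 times (0.50 to 1.80, adjusted p = 0.94).

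**Figure D2:**
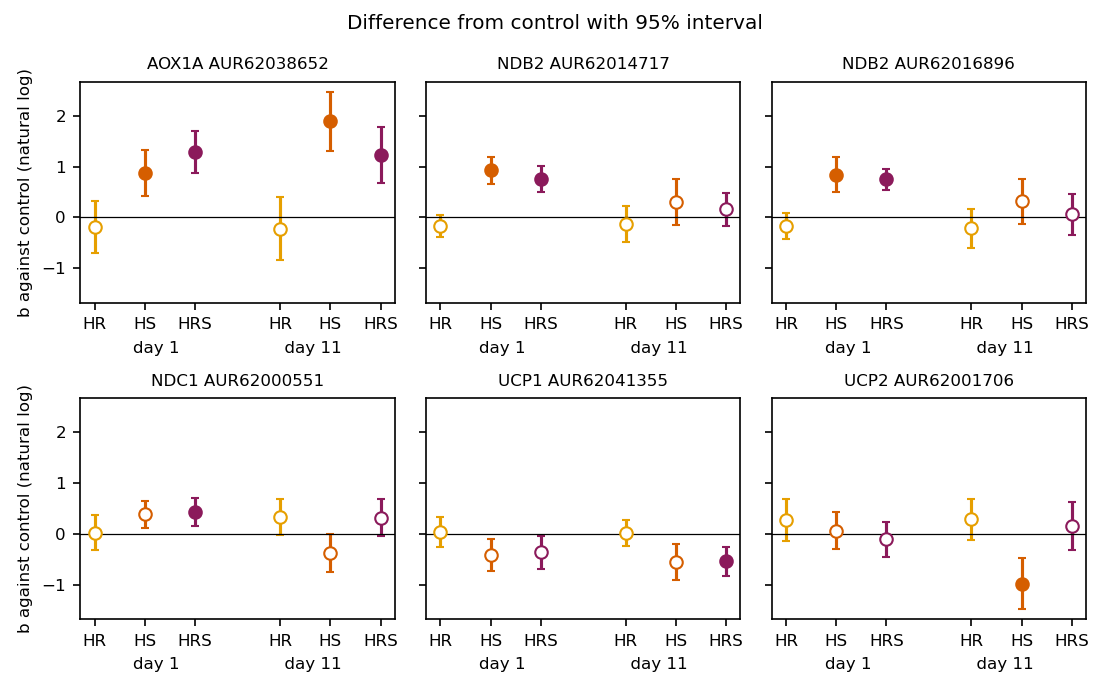
Difference from control (b, natural log) with its 95% limma interval for the 6 members called in at least 1 comparison, by treatment and day. Filled points are called and open points are not. AOX1A AUR62038652 was above 0 in HS and HRS on both days, the NDB2 copies on day 1, and UCP2 AUR62001706 was below 0 in HS on day 11.

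The other 3 AOX1A copies were not called in any comparison, and no test of a difference between copies was run. AUR62027312 was at 900 under control conditions, 1100 under HR, 1122 under HS and 1091 under HRS on day 1. On day 11 it was at 1294, 1074, 418 and 856 in the same order. Its difference in HS was thus 0.22 ± 0.12 on day 1 and -1.13 ± 0.42 on day 11 (limma adjusted p = 0.23 and 0.13), and the change between days was -1.35 ± 0.49 (adjusted p = 0.094). On day 11 this copy and AUR62038652 had differences of opposite sign in HS, and only the latter passed the test. The plants differed widely in this copy, with a residual SD of 0.69 on the natural log scale in the HS fit of day 11 against 0.17 in that of day 1.

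AUR62007420 had differences between 0.33 and 1.37 in HS and HRS on the 2 days, of the same sign as those of AUR62038652, and AUR62010135 between -0.32 and 0.34. Of these values, the one of 1.37 ± 0.59 for AUR62007420 in HRS on day 11, was the largest and had a limma adjusted p of 0.20, and the plants had a residual SD of 0.96. In each comparison their spread among plants was above that of both NDB2 copies.

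AOX2, the second oxidase type of Arabidopsis, was covered by few estimated counts. AUR62013127 was tested on day 1 alone, at levels from 5.79 in HS to 10.6 in HR. AUR62029604 was at 3.94 in control, 2.53 under HS and 3.12 under HRS on day 1, and at 2.07 in control, 22.5 under HS and 9.79 under HRS on day 11. On day 11 its difference was 2.19 ± 0.56 under HS and 1.39 ± 0.60 under HRS, which did not pass the test (limma adjusted p = 0.062 and 0.20). With total scaling the HS difference on day 11 was called.

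NDB2 is the external dehydrogenase of Arabidopsis that is often induced together with AOX1A. On day 1 the copy AUR62014717 was at 344 under control conditions, 289 under HR, 867 under HS and 727 under HRS. The copy AUR62016896 was at 240, 203, 557 and 507 in the same order. In both copies the levels with heated shoots were above those of control and HR.

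AUR62014717 was 2.52-fold higher in HS (b 0.92 ± 0.11, 95% interval 1.94 to 3.27, limma adjusted p = 0.0013) and 2.12-fold higher in HRS (0.75 ± 0.11, interval 1.64 to 2.72, adjusted p = 0.0022). AUR62016896 was 2.32-fold higher in HS (0.84 ± 0.15, interval 1.63 to 3.28, adjusted p = 0.0067) and 2.11-fold higher in HRS (0.75 ± 0.09, interval 1.72 to 2.58, adjusted p = 0.00081). The copies thus had like values in each treatment. Of these 4 calls, the one of AUR62016896 in HS was lost with unmoderated variance, and the other 3 were made under all 10 alternatives. The HRS level was 0.84 times that of HS for AUR62014717 (interval 0.59 to 1.2) and 0.91 times for AUR62016896 (0.62 to 1.35), both with an adjusted p of 1.00.

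By day 11 neither NDB2 copy was called. AUR62014717 was at 256 under control conditions, 223 under HR, 348 under HS and 300 under HRS, and AUR62016896 at 149, 120, 205 and 158. The order of the groups was that of day 1, with smaller gaps. The differences were 0.31 ± 0.20 and 0.32 ± 0.19 in HS and 0.16 ± 0.14 and 0.06 ± 0.18 in HRS (limma adjusted p from 0.31 to 0.87). The change between days was -0.62 ± 0.24 and -0.52 ± 0.26 in HS and -0.59 ± 0.18 and -0.69 ± 0.20 in HRS, and none of the 4 passed the adjustment (adjusted p = 0.12, 0.22, 0.087 and 0.066). Both HRS changes were called by the normal z test. With total scaling the changes shrank to -0.20 and -0.10 in HS and to -0.47 and -0.57 in HRS, and none was called. The HS differences on day 11 were then 0.55 and 0.56, also not called. How far the NDB2 response in HS differed between days thus depended on the scaling.

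**Figure D3:**
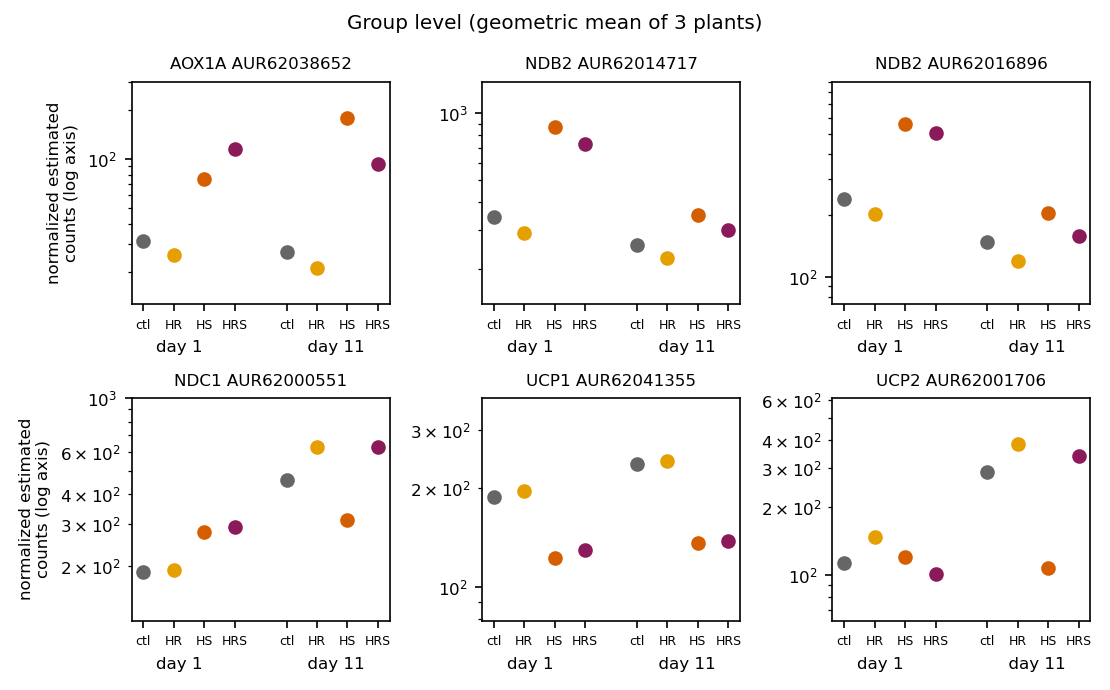
Group levels (geometric mean of 3 plants, normalized estimated counts, log axis that differs between panels) of the 6 members called in at least 1 comparison. Grey is control, orange HR, red HS and purple HRS, with day 1 on the left and day 11 on the right, which are scaled apart. The HS and HRS points of AOX1A lie above those of control and HR on both days, and on day 11 the HS point of UCP2 and of NDC1 is the lowest of the 4.

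The remaining external dehydrogenase, NDB3, had 1 transcript, AUR62043953. Its level on day 1 was 47.4 under control conditions, 59.8 under HR, 72.0 under HS and 66.6 under HRS, and it was not called (b 0.41 ± 0.20 in HS, limma adjusted p = 0.18). On day 11 it lay between 40.4 in HRS and 62.5 in control and was not called either.

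The internal dehydrogenases NDA1 and NDA2, which face the matrix, were not called in any comparison. The NDA2 copy AUR62001629 was at 176 under control conditions, 195 under HR, 123 under HS and 155 under HRS on day 1 (HS difference -0.36 ± 0.13, limma adjusted p = 0.091), and at 246, 191, 248 and 243 on day 11. With total scaling its HS difference on day 1 was called lower. The NDA2 copy AUR62020150 was at 542, 683, 597 and 482 on day 1 and at 1195, 1335, 611 and 1146 on day 11, with a difference of -0.67 ± 0.24 in HS on day 11 (adjusted p = 0.12). The NDA1 transcript AUR62014743 was tested on day 11 alone, in HS and HRS, at levels from 1.85 to 3.63.

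NDC1 is found in mitochondria and in plastids, where it takes part in the metabolism of plastid quinones. On day 1 the copy AUR62000551 was at 189 under control conditions, 193 under HR, 276 under HS and 290 under HRS. The levels with heated shoots were the higher ones. It was 1.54-fold higher in HRS (b 0.43 ± 0.12, 95% interval 1.18 to 2.01, limma adjusted p = 0.031), and the 1.46-fold difference in HS just missed the threshold (0.38 ± 0.12, adjusted p = 0.051). The call in HRS was lost in 5 of 10 alternatives, total scaling among them (b 0.30).

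On day 11 the order of the groups differed for AUR62000551, with 455 under control conditions, 630 under HR, 312 under HS and 624 under HRS. HS was now the lowest group. The HS difference was -0.38 ± 0.16 (limma adjusted p = 0.18), and the day 11 effect was lower than that of day 1, with a change of -0.76 ± 0.20 (95% interval -1.2 to -0.31, adjusted p = 0.031). That change was 1 of 2 called among 17 members, both lower, beside 12.5% of 29715 transcripts (4.30% higher and 8.24% lower). With total scaling it was -0.34 and was not called, and over all transcripts the share of calls that were higher moved from 34.3% to 87.4%. The members called then were 3, all higher, namely NDA2 AUR62001629 (change 0.79), AOX2 AUR62029604 (2.99) and AOX1A AUR62038652 (1.44), and none was lower. In the same comparison 18 of 20 leaf markers were called lower and all 20 were negative, with a median change of -2.13. The second copy, AUR62006903, was at 199, 193, 373 and 220 on day 1 and at 281, 337, 226 and 346 on day 11, and was not called in any comparison (residual SD from 0.46 to 0.71).

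The 5 UCP transcripts had lower levels in HS than in control on day 11, as single values and under each of the 3 scalings, but 1 of them passed the test. Their b ranged from -1.2 to -0.35, with a median of -0.55 against a median of 0.00 over all transcripts. Over all members, 2 of 18 were called in HS on day 11, 1 higher and 1 lower, beside 4.95% of 30731 transcripts (2.09% higher and 2.86% lower). Total scaling moved the share of higher calls over all transcripts from 42.2% to 87.0%, and the lower call among members was then lost.

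The UCP2 copy AUR62001706 was at 113 under control conditions, 148 under HR, 120 under HS and 101 under HRS on day 1. On day 11 it was at 288 under control conditions, 382 under HR, 108 under HS and 338 under HRS. HS alone stood below the other groups on day 11. It fell in HS to 0.38 times the control level (b -0.98 ± 0.22, 95% interval 0.23 to 0.62, limma adjusted p = 0.048), a call lost in 5 of 10 alternatives, among them total scaling (-0.74) and centring on the median of the more abundant transcripts (-0.94). Between the days its HS difference changed by -1.04 ± 0.28 (interval -1.66 to -0.43, adjusted p = 0.033), and by -0.63, not called, with total scaling.

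The other UCP2 copy, AUR62020075, was at 136 under control conditions, 137 under HR, 40.6 under HS and 158 under HRS on day 11. HS was again the lowest group, and plants differed more than in the first copy. The HS difference of -1.2 ± 0.34 did not pass the test (limma adjusted p = 0.075). On day 1 it was at 28.3, 48.8, 18.6 and 26.0 in control, HR, HS and HRS.

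With warm roots added to hot shoots, both UCP2 copies were near the control level on day 11, with b of 0.16 ± 0.21 and 0.15 ± 0.34 in HRS. Set against HS, HRS was 3.13 times as high for AUR62001706 (95% interval 1.62 to 6.04) and 3.86 times for AUR62020075 (1.4 to 10.6). Neither passed the adjustment (limma adjusted p = 0.13 and 0.20). This test had to use the largest variance that the separate fits allow, and 0 of 18 members and 0 of 29947 transcripts were called (5 members had an unadjusted p under 0.05). With the residual variance split equally among the groups, 3535 transcripts were called, among them both UCP2 copies and NDC1 AUR62000551, all 3 higher in HRS, and the normal z test called 1159 transcripts, UCP2 AUR62001706 among them. Total scaling lowered b of HRS against HS from 1.139 to 0.885 for AUR62001706 and from 1.35 to 1.095 for AUR62020075. It called 7 transcripts, 1 higher and 6 lower, and no member.

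The UCP1 copy AUR62041355 was called in 1 comparison. It was at 187 under control conditions, 196 under HR, 123 under HS and 130 under HRS on day 1, and at 237, 242, 136 and 138 on day 11. The groups with heated shoots were the lower ones on both days. It fell in HRS on day 11 to 0.58 times the control level (b -0.54 ± 0.12, 95% interval 0.44 to 0.77, limma adjusted p = 0.046), a call lost in 3 of 10 alternatives (unmoderated variance, no trend over abundance and an adjusted p under 0.01). In HS on day 11 (-0.55 ± 0.15), HS on day 1 (-0.42 ± 0.14) and HRS on day 1 (-0.37 ± 0.14) it was not called, with adjusted p of 0.075, 0.063 and 0.10. With total scaling both day 1 differences were called, and the HS difference on day 11 shrank to -0.31 and was not called. The HRS level was 1.01 times that of HS on day 11 (interval 0.62 to 1.64).

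The UCP1 copy AUR62025806 was at 301 under control conditions, 280 under HR, 224 under HS and 247 under HRS on day 1, and at 300, 317, 183 and 290 on day 11. HS was the lowest group on both days. Its HS difference was -0.29 ± 0.10 on day 1 and -0.49 ± 0.12 on day 11, with limma adjusted p of 0.066 and 0.053. With total scaling the day 1 difference was -0.47 and was called, and that of day 11 shrank to -0.25 and was not. The copy AUR62030192 was at levels from 7.0 to 38.5 and was not called.

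Over all members, HRS on day 11 held 2 calls of 18, AOX1A AUR62038652 higher and UCP1 AUR62041355 lower, beside 5.55% of 30322 transcripts (2.78% higher and 2.77% lower). The photosynthetic leaf markers had calls in HS and HRS on both days, and in HR most lay above 0 without a call. On day 1, 9 of 20 were called higher and 2 lower in HS (median b 0.37), and 5 higher and 2 lower in HRS (median 0.26). The higher calls of AOX1A and NDB2 on day 1 lie in HS and HRS, and that of NDC1 in HRS alone. In HR all 20 were positive on day 1 (median 0.32) and 18 of 20 on day 11 (median 0.29), and none was called. In HS on day 11, 14 of 20 were called lower and all 20 were negative, with b from -4.28 to -0.80 and a median of -1.45. In HRS on day 11, 1 of the 20 was called lower, and the median was -0.22. RNA came from whole leaves, in which fewer cells of a type and less RNA per cell cannot be told apart, and the part of the leaf markers' change in the values of the members was not tested.

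**Figure D4:**
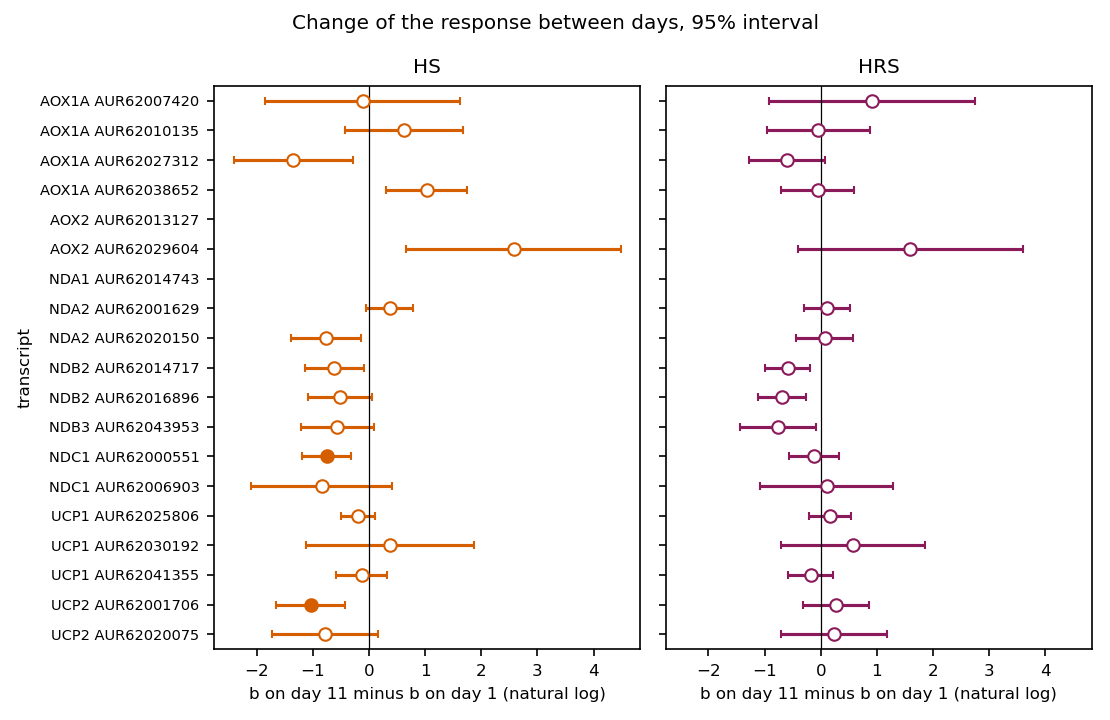
Change of the difference from control between the days (b on day 11 minus b on day 1, natural log) with its 95% limma interval, for HS (left) and HRS (right) on 1 shared axis scale. Filled points are called. In HS the NDC1 copy AUR62000551 and the UCP2 copy AUR62001706 are filled, at -0.76 and -1.04, and no point is filled in HRS.

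Root heating alone moved no member past the test. In HR, 0 of 17 members were called on day 1 and 0 of 16 on day 11 by limma, beside 0% of 30320 and 0% of 30588 transcripts. The number with an unadjusted p under 0.05 was 1 and 0 of the members, and 2322 and 3379 of all transcripts, and the normal z test called 172 and 269 transcripts but no member. The members' b ranged from -0.20 to 0.65 on day 1 and from -0.49 to 0.32 on day 11.

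The HR values of the 6 members called under shoot heating were as follows. NDB2 AUR62014717 had a b of -0.17 ± 0.10 in HR on day 1 (95% interval -0.40 to 0.05), and AUR62016896 of -0.17 ± 0.11 (-0.43 to 0.09). AOX1A AUR62038652 had -0.20 ± 0.23 (-0.71 to 0.32) on day 1 and -0.22 ± 0.27 (-0.84 to 0.39) on day 11. None of these 4 intervals reaches the b of the same transcript in HS on that day, but HS was not tested against HR. NDC1 AUR62000551 had 0.02 ± 0.15 on day 1 (-0.32 to 0.37), an interval that ends just under its HS value of 0.38. On day 11 UCP2 AUR62001706 had 0.28 ± 0.17 (-0.11 to 0.68) and UCP1 AUR62041355 had 0.02 ± 0.11 (-0.24 to 0.28). UCP1 AUR62030192 had the one unadjusted p under 0.05 (b 0.65 ± 0.28, limma adjusted p = 0.65).

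The interaction, which asks whether the effects of root and shoot heating add up, was called for 0 of 17 members on day 1 and 0 of 16 on day 11, and HRS against HS for 0 of 18 on day 1, beside 0% of all transcripts in each by limma. Unadjusted p under 0.05 was reached by 0, 2 and 0 members, and the normal z test called none of the members. The day 11 effect against the day 1 effect was called for 0 of 17 members in HRS, beside 5.07% of 29291 transcripts, 1.48% higher and 3.59% lower (3 members with an unadjusted p under 0.05, and 2 called by the z test), and for 0 of 16 in HR, beside 0% of 29439 (1 and 0).

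The other parts of the respiratory chain were read from lists of Arabidopsis loci. Of 33 tested transcripts of the cytochrome pathway (complex III, cytochrome c and complex IV), 7 were called higher and 1 lower under HS on day 1, and 8 and 2 under HRS. On day 11 these counts were 0 and 1 under HS and 3 and 0 under HRS. The share called was 24.2%, 30.3%, 3.03% and 9.09%, beside 22.1%, 22.7%, 4.95% and 5.55% of all transcripts. The median b was 0.05, 0.08, -0.15 and 0.21 in these 4 comparisons. The 2 copies of QCR7-2, a small subunit of complex III, had a b of 0.88 ± 0.11 (AUR62024869) and 1.18 ± 0.23 (AUR62030679) in HS on day 1, and the cytochrome c1 copy AUR62008267 had 0.40 ± 0.08 (limma adjusted p = 0.0013, 0.0099 and 0.0096). The QCR7-2 values lie beside those of 0.92 and 0.84 of NDB2 on that day.

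Of 24 tested complex I transcripts, 1 was called on day 1, AUR62009167, an iron-sulfur subunit that was higher under both HS and HRS (b 0.30 ± 0.06 and 0.34 ± 0.06). In HS on day 11, 2 were called lower and none higher, and in HRS none was called (6 with an unadjusted p under 0.05). The day 1 share of 4.17% under either treatment was below the 22.1% (HS) and 22.7% (HRS) of all transcripts. For day 11 the share was 8.33% beside 4.95% under HS, and 0% beside 5.55% under HRS. The median b was 0.10, 0.06, -0.23 and 0.14 in the order of comparisons above. In HS on day 11 the medians of complex I, of the cytochrome pathway and of the members (-0.19) were all below 0, and total scaling, which adds 0.24, puts each of them above 0.

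Relatives outside the rule gave no limma call in the 6 comparisons, with an unadjusted p under 0.05 in 1 to 3 of them in 4 comparisons and in none in the other two. These were 6 transcripts of NDB1, PTOX (the terminal oxidase of plastids), UCP3 and the dicarboxylate carrier DIC2. Their b ranged from -0.58 to 0.97 in HS and HRS on day 1 and from -0.75 to 0.50 on day 11, and the smallest limma adjusted p was 0.080 (NDB1 in HRS on day 11). NDB1, an external dehydrogenase specific for NADPH, had b of -0.51 ± 0.18 in HS on day 1, where both NDB2 copies were above 0.

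**Figure D5:**
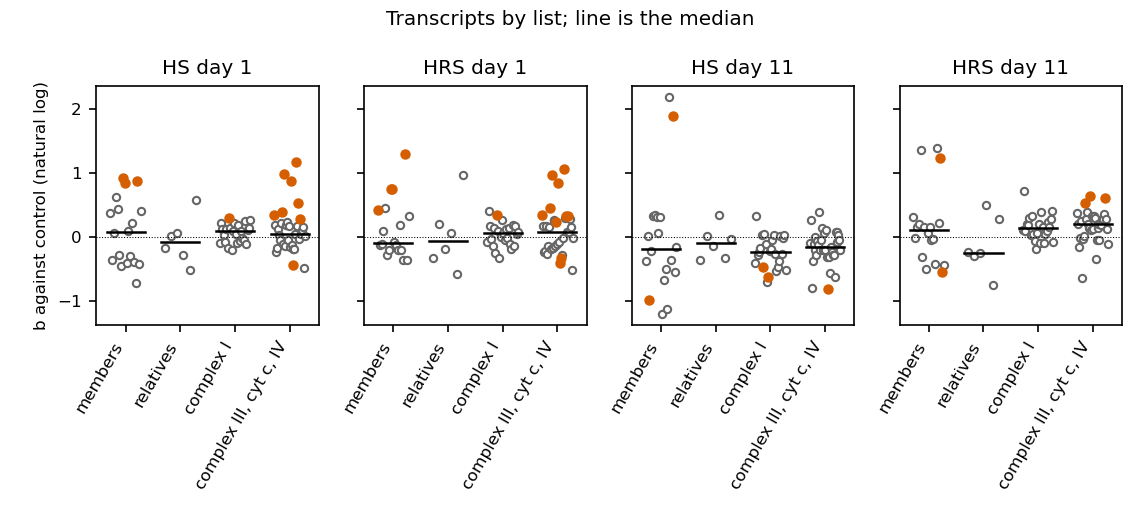
Difference from control (b, natural log) of each tested transcript in the members, their relatives, complex I and the cytochrome pathway (complex III, cytochrome c and complex IV), in the 4 comparisons with heated shoots. Filled orange points are called, open points are not, and lines are medians. The AOX1A and NDB2 values called on day 1 lie beside called cytochrome pathway transcripts of like size, and on day 11 the members spread over the widest range of the 4 lists in HS.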

How the data were processed

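The authors trimmed the reads, estimated counts per transcript with kallisto on the quinoa transcriptome and fitted every treatment against its control of the day in sleuth 0.30.0. Their deposited table holds b, its standard error, means and components of variance, all in natural log units of normalized estimated counts plus 0.5, and the authors' p-values and q-values, which were not used. No plant's own values are in it.

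Here the residual variance of each fit (4 degrees of freedom) was moderated with limma 3.58.1 in R 4.3.3, with a trend over abundance, and p-values were adjusted over all transcripts. HRS against HS and the interaction took the largest variance the separate fits allow. The days were compared with the variances of both fits pooled (8 degrees of freedom). Figures used Python and matplotlib.

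Members and lists were chosen with earlier results of these data known. Every member is described, those called with full values. Alternatives were other variances, tests, thresholds, filters and scalings. Transcript identifiers matched 0 rows of the reference gene table, and no sequence is shown.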

Additional observations from a re-analysis of the deposited data

Results flagged for a closer look

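For 2 members the effect of HS on day 11 differed from that on day 1 by a test of the difference itself, and the other comparisons of days gave no call among the members. The NDC1 copy AUR62000551 had a change of -0.76 ± 0.20 on the natural log scale (limma adjusted p = 0.031), from 0.38 on day 1 to -0.38 on day 11. The UCP2 copy AUR62001706 had a change of -1.04 ± 0.28 (adjusted p = 0.033), from 0.06 to -0.98. With total scaling its values were -0.11 on day 1 and -0.74 on day 11. Different plants were sampled on the 2 days, and both changes were smaller and no longer called with total scaling. In the same comparison 18 of 20 photosynthetic leaf markers were called lower, with a median change of -2.13, and their part in the changes of NDC1 and UCP2 was not tested.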

How the results depend on the processing

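Counts are of transcripts over all and of members, against the main counts in the report. The normal z test called 172 and 269 in HR on days 1 and 11, 4174 and 3723 in HS and HRS on day 11, 16 and 1159 for HRS against HS on days 1 and 11, 3 and 11 for the interaction, and 6 for HR between days. It called 7 and 6 members in HS on days 1 and 11, 1 for HRS against HS on day 11 and 2 for HRS between days. Unmoderated variance called 3728, 3573, 2 and 24 in HS and HRS on day 1 and HS and HRS on day 11, with 1 member in HS on day 1 and 0 in HS and HRS on day 11. Without a trend over abundance, 4 and 1 were called in HR on days 1 and 11, and 82 and 294 in HS and HRS on day 11, with 0 members in both. An adjusted p under 0.01 left 3156, 3258, 22 and 19 (0 members in HS and HRS on day 11), and one under 0.1 gave 4488 and 3671 in HS and HRS on day 11, with 7 and 6 members in HS on days 1 and 11. Adjustment over the 6 comparisons together called 238 and 318 in HR. Total scaling called 5106 in HS on day 11, 7 for HRS against HS on day 11 and 10091 for HS between days, and 6 members in HS on day 1, and centring on the median left 1 member in HS on day 11. An equal split of the variance called 13 and 3535 for HRS against HS on days 1 and 11 and 1 and 2 for the interaction, with 3 members on day 11. In HRS between days, total scaling moved the share of higher calls from 29.2% to 53.1%, with 0 members called. Of 116 single values of called members under an alternative, 92 kept their side of the threshold, 24 lost the call and 0 turned their sign. The cause of these differences was not tested. Leaving out a plant could not be run, and no paired analysis was possible because the table holds no values of single plants. Wide intervals occurred among members of low level, such as AOX2 AUR62029604 and NDA1 AUR62014743. They also occurred among members of higher level whose plants differed widely, such as NDC1 AUR62006903.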

Other observations

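Genes that respond with AOX1A to mitochondrial signals in Arabidopsis were read from a list of known regulators and targets. The quinoa transcripts found matched only the targets OM66, UGT74E2, 12CYS-2 and HSP23.5, so no regulator was read, and HSP23.5 was not tested. Both tested copies of 12CYS-2 (AUR62003687 and AUR62043607) were called higher on day 1, with b of 0.87 ± 0.12 and 0.62 ± 0.11 under HS and 0.80 ± 0.10 and 0.54 ± 0.08 under HRS (limma adjusted p from 0.00083 to 0.0058). Of the OM66 copies, only AUR62007608 and AUR62016764 were tested in HS and HRS on day 1, and both were called lower. Their b was -0.98 ± 0.27 and -1.0 ± 0.21 under HS and -1.47 ± 0.18 and -1.28 ± 0.24 in HRS. In HR on day 1 it was -1.02 ± 0.22 and -0.11 ± 0.28, and neither was called, so the first copy had a like value without heated shoots. The UGT74E2 copy AUR62002440 was called lower on day 1 under HS and HRS (-1.81 ± 0.21 and -1.52 ± 0.11). The other UGT74E2 copies tested in both were above 0 and not called, with b from 0.04 to 0.60 under HS and from 0.12 to 0.64 under HRS. AUR62002436, tested on day 1 in HRS but not in HS, had -1.81 ± 0.76 and was not called. On day 11 AUR62023751 was called higher in HRS (1.4 ± 0.26, limma adjusted p = 0.027). In all, 2 were called higher and 3 lower of 10 tested under HS and of 11 tested under HRS on day 1, beside 22.1% and 22.7% of all transcripts.

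Over the 6 values of b, the transcripts nearest to AOX1A AUR62038652 among 14349 of more than median abundance matched PILS5, a PIN-LIKES protein (AUR62016561, distance 0.79), the locus AT3G10985 (AUR62022968, distance 0.85) and the mitochondrial chaperone HSP90-6 (AUR62017485, distance 0.89). The distance is Euclidean on the natural log scale. On day 1 PILS5 had b of 0.85 under HS and 1.12 under HRS, and on day 11 of 1.31 and 0.83. The match of AT3G10985 had 1.06 and 1.17 on day 1, and 1.64 and 0.56 on day 11. For HSP90-6 the values were 1.5 and 1.66 on day 1, and 1.51 and 1.05 on day 11.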
